A study of Mus musculus with 9 samples.

Results

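Collagen genes were taken as every gene on the array whose symbol reads Col, a type number, the letter a and a chain number. The platform annotation tied 58 probe sets to 36 such genes of 12393 named genes. Each gene was represented by the probe set with the highest mean signal, on the log2(signal + 16) scale. A level below is a value on that scale, a difference is a difference of such levels, and the lowest possible level is 4, so differences of dim genes are understated. Levels of different genes were not compared, because each probe set has its own response.

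RNA came from cells sorted out of the back skin of CD1 female mice, virgins carrying the Lef1RFP and K14H2BGFP reporters, which every group shares. Dermal papilla cells were red and not green (RFP+, GFP-) and lacked CD45, CD117 and Itgα7, and by the sample titles CD34. They were taken from the cells that collagenase released. Hair germ cells (RFP-, GFP+, CD34-, Pcad high) and bulge cells (RFP-, GFP+, CD34+, Pcad low) were taken after trypsin treatment of the skin that remained. Each population was sampled on postnatal days 43, 56 and 69, named early, middle and late telogen, the resting phase of the hair cycle. There was 1 array for each population and day, 9 in all, so the 3 days served as the replicates of a population, and whether animals were pooled or shared between populations is not given in the sources used here. The p values therefore measure the spread between these arrays, which includes any age effect that differs between populations. In sorted cells fewer cells of a type and less RNA per cell cannot be told apart.

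Collagens are proteins whose chains coil together into a rope-like helix and are secreted, trimmed and cross-linked into the extracellular matrix. Fibrillar types give the dermis its tensile strength, type IV forms the sheet at the core of basement membranes, type VI forms beaded filaments around cells, and FACIT collagens sit on the surface of fibrils. Transmembrane collagens are anchored in the plasma membrane of the cell that makes them. In skin, fibroblasts and papilla cells are the main source of fibrillar collagens, whereas keratinocytes make the anchoring collagens of the dermal-epidermal junction.

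The papilla and keratinocyte marker lists matched the sort labels. In dermal papilla, 10 of 10 papilla markers on the array lay above the array median on each day, and the summed signal of the list was 18944 to 26830, against 177 to 228 in bulge and 230 to 587 in hair germ. The summed signal of 8 keratinocyte markers was 32816 to 35529 in bulge, 39366 to 61706 in hair germ and 242 to 1121 in dermal papilla. The 9 dermal fibroblast markers summed to 6880 to 7796 in dermal papilla, 189 to 763 in bulge and 419 to 1045 in hair germ. Of these 9, 6, 7 and 7 lay above the median in dermal papilla on days 43, 56 and 69. The part of dermal fibroblasts in the collagen levels of dermal papilla was not tested. Over the 3 populations, summed signals ranged from 99.7 to 605 for leukocyte and 43.0 to 4237 for melanocyte markers (highest in hair germ). The ranges were 145 to 260 for Schwann, 3.97 to 20.8 for adipocyte and 44.4 to 132 for skeletal muscle markers. The bulge list stood at 14786 to 16792 in bulge, 8801 to 10622 in hair germ and 454 to 703 in dermal papilla. It includes Krt15, also a keratinocyte marker, at 12.96 to 13.23 in bulge and 12.93 to 13.29 in hair germ. Cd34, a sort gate, was at 11.60 to 11.77 in bulge and 4.07 to 5.72 in hair germ. Nfatc1, Lhx2, Sox9 and Tcf7l1 were higher on each bulge array than on any hair germ array. The arrays were not equal in RNA quality. As measured by the ratio of GAPDH 3' to 5' signal, which rises when RNA is short or incompletely amplified, hair germ stood at 8.34, 2.97 and 7.90 on days 43, 56 and 69. Dermal papilla stood at 6.62, 4.13 and 3.77, and bulge at 3.96 to 5.09. Array medians lay between 5.81 and 6.18.

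Tests covered collagens whose probe set exceeded the median signal of the array on 3 or more of 9 arrays, which held for 22 of 36. Of these, 8 were above the median on all 9 arrays. Col6a3, Col13a1, Col15a1 and Col5a3 passed only through the dermal papilla arrays, so for these 4 genes the filter itself favours a difference, and the counts over tested collagens below are descriptions. Among the 14 that were not tested, 9 were above the median on no array and reached at most 5.77. These were Col2a1 and Col11a2 (fibrillar), Col4a3 and Col4a4 (type IV), Col9a1, Col9a2 and Col22a1 (FACIT), Col10a1 (short chain) and Col26a1. The other 5, namely Col11a1, Col14a1, Col19a1, Col25a1 and Col9a3, were above the median on 1 or 2 arrays.

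**Figure D1:**
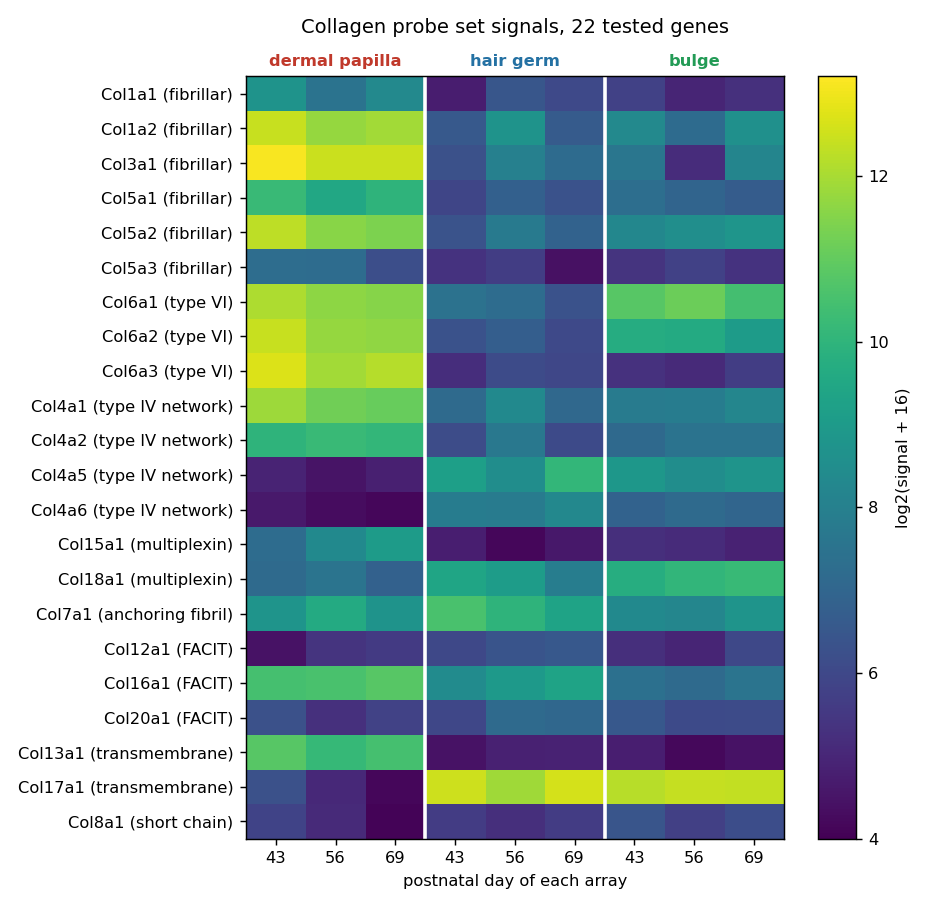
Level, as log2(signal + 16), of each of the 22 tested collagen genes (rows, by structural class) on each of the 9 arrays (columns, 3 populations by postnatal day). Col3a1 reached 13.11 in dermal papilla and Col17a1 reached 12.62 in hair germ, and the rows for Col4a5 and Col4a6 run opposite to those for Col4a1 and Col4a2.

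The upstream sequences of 4 genes are shown because these genes mark the main patterns: Col1a2, a fibrillar chain high in dermal papilla, Col17a1, the chain with the largest fall there, and Col4a5 and Col4a6, neighbouring chains that were low in dermal papilla together. Each run is the 250 bases before the RefSeq start of the gene on GRCm38.p6, 5′ to 3′ on the strand of the gene, and capitals mark matches on either strand to 3 motifs that do not overlap here. The TATA box was searched as TATAAA. The CCAAT box was searched by the 5 letters of its name. The GC box was searched as GGGCGG.
Col1a2, chr6:4505368-4505617, plus strand: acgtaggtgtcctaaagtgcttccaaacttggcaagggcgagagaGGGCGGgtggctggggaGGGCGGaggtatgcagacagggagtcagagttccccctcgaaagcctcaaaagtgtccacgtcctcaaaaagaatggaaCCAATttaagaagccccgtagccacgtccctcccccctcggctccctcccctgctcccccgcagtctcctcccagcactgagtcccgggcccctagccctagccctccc
Col17a1, chr19:47692043-47692292, minus strand: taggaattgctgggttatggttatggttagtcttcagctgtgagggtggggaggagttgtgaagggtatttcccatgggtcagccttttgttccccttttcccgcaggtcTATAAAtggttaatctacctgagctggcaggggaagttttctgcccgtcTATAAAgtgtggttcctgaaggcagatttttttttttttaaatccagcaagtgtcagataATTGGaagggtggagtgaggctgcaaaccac
Col4a5, chrX:141475169-141475418, plus strand: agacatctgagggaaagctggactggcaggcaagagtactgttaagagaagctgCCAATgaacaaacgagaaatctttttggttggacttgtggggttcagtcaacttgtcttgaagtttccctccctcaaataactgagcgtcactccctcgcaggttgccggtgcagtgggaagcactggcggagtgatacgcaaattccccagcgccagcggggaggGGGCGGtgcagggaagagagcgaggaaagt
Col4a6, chrX:141474077-141474326, minus strand: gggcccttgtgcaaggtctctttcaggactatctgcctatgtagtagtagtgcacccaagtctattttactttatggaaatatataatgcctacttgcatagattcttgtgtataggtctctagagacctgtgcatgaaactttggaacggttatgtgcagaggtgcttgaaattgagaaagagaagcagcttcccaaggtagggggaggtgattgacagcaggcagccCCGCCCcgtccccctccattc
The Col17a1 window held 2 TATA box matches and no GC box match, and the Col1a2 window held 2 GC box matches and no TATA box match. Col4a5 and Col4a6 are read away from each other, with 1342 bases between their annotated starts. Of 30 windows for 27 of the collagen genes, 5 held a TATA box (16.7%, against 12.4% of all 32851 windows in the table), 12 a CCAAT box (40%, against 33.8%) and 16 a GC box (53.3%, against 32.7%). A match is a string of letters and not a shown binding site.

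The first comparison asked which collagen genes differ between dermal papilla, a knot of mesenchymal cells that signals to the follicle, and the epithelium beside it. All 6 tested fibrillar genes and all 3 type VI genes were higher in dermal papilla than in the mean of hair germ and bulge, while type IV chains split by pair and the transmembrane chains lay at opposite ends. In all, 14 of 22 tested collagens were higher and 4 were lower (limma, adjusted p below 0.05). Of all tested genes 40.3% were called, 16.6% higher and 23.7% lower. The 14 include Col6a3, Col13a1, Col15a1 and Col5a3, which passed the filter only through the dermal papilla arrays. The median difference was 2.75 over the tested collagens and -0.10 over all tested genes. In 18 of 22, the same genes that were called, the 3 dermal papilla arrays did not overlap the 6 epithelial ones, as held for 31.7% of all tested genes.

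Among the fibrillar genes, Col3a1, which encodes the chain of type III collagen of extensible tissues, stood at 13.11, 12.47 and 12.47 in dermal papilla on days 43, 56 and 69. It stood at 6.28, 8.02 and 7.21 in hair germ and at 7.63, 5.15 and 8.20 in bulge. The papilla arrays were close to each other and far above the epithelial ones, and the bulge arrays varied most. The difference was 5.60 ± 0.56 (SE), or 48.5-fold (limma, adjusted p = 1.31e-05).

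Col1a2, a chain of type I collagen, the main collagen of dermis, was at 12.43, 11.75 and 11.93 in dermal papilla, 6.56, 8.74 and 6.65 in hair germ and 8.33, 7.21 and 8.63 in bulge. Its difference was 4.35 ± 0.48 (SE, adjusted p = 2.74e-05). The partner chain Col1a1 was at 8.74, 7.52 and 8.33 in dermal papilla, 4.75, 6.45 and 6.03 in hair germ and 5.78, 4.94 and 5.28 in bulge. It was higher by 2.66 ± 0.40 (SE, adjusted p = 0.00029), and its epithelial values on 5 of 6 arrays were under their array medians, where the added 16 compresses differences.

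Type V collagen is a minor partner that sets the diameter of type I fibrils. Its chain Col5a2 was at 12.27, 11.56 and 11.39 in dermal papilla, 6.37, 7.79 and 6.91 in hair germ and 8.25, 8.54 and 8.81 in bulge. The 3 populations did not overlap, with papilla highest and hair germ lowest, and the difference of papilla from epithelium was 3.97 ± 0.30 (SE, adjusted p = 1.64e-06). Col5a1 was higher by 3.26 ± 0.26 (SE) and Col5a3, which passed the filter only through the papilla arrays, by 1.60 ± 0.25 (SE).

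Type VI collagen assembles from chains made by Col6a1, Col6a2 and Col6a3, and the 3 genes did not share 1 pattern. Col6a3 was at 12.72, 11.91 and 12.18 in dermal papilla, 5.21, 6.12 and 5.95 in hair germ and 5.32, 5.08 and 5.67 in bulge. It was below the array median on all 6 epithelial arrays and 6.71 ± 0.26 (SE) higher in papilla, or 105-fold (limma, adjusted p = 1.97e-08). Since Col6a3 passed the filter only through the papilla arrays, its p values in this paragraph are descriptions. Col6a1 was at 12.08, 11.63 and 11.53 in dermal papilla, 7.48, 7.26 and 6.31 in hair germ and 10.81, 11.14 and 10.44 in bulge. Bulge thus lay close under papilla, and hair germ far below both. Col6a2 was at 12.42, 11.75 and 11.65 in dermal papilla, 6.33, 6.76 and 6.03 in hair germ and 9.68, 9.64 and 9.03 in bulge, again with no overlap between populations. Against bulge alone, a comparison added after the values were seen in which 16.1% of all tested genes were higher and 19% lower, papilla was higher by 0.95 ± 0.23 (SE) for Col6a1 (limma, adjusted p = 0.00794), by 2.49 ± 0.23 for Col6a2 (adjusted p = 7.86e-06) and by 6.92 ± 0.30 for Col6a3 (adjusted p = 5.76e-08).

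**Figure D2:**
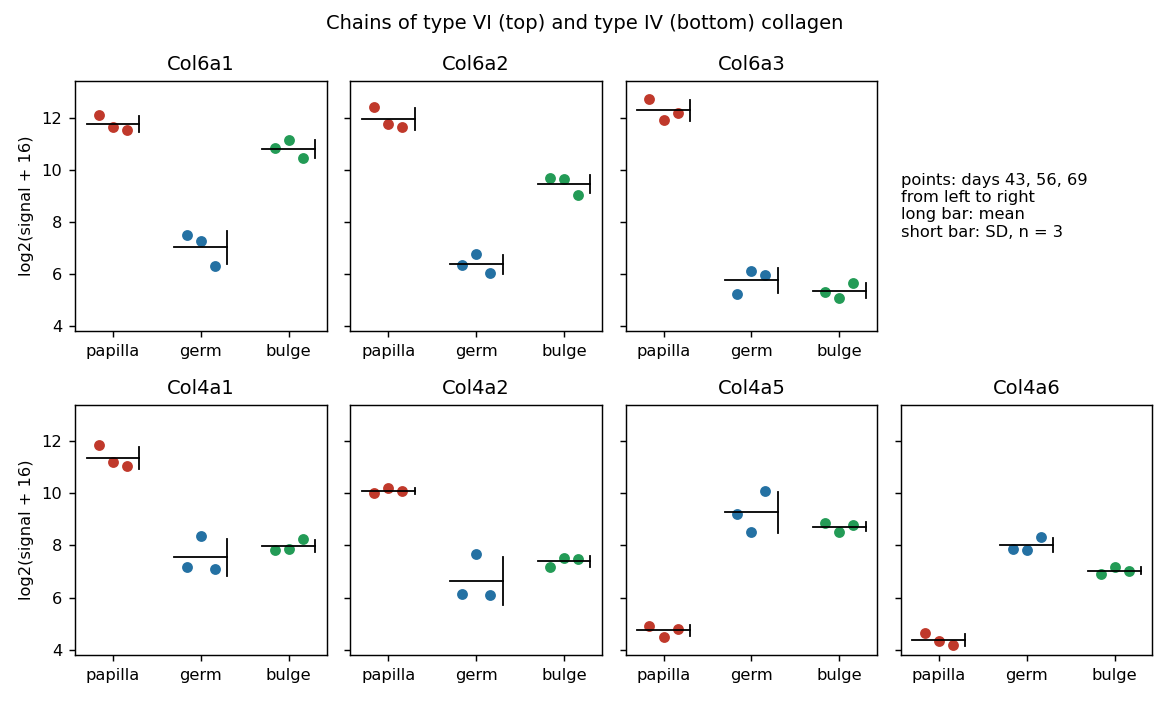
Levels, as log2(signal + 16), of the tested type VI chains (top) and type IV chains (bottom) in dermal papilla, hair germ and bulge. Points are the arrays of days 43, 56 and 69 from left to right, the long bar is the mean and the short bar the SD (n = 3). Bulge lies near dermal papilla for Col6a1 but near hair germ for Col6a3, and Col4a5 and Col4a6 are low in dermal papilla where Col4a1 and Col4a2 are high.

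Type IV genes lie as neighbouring pairs in the genome, and the pairs differed in opposite directions. Col4a1 and Col4a2, which encode the chains found in nearly all basement membranes, were higher in dermal papilla by 3.60 ± 0.29 (SE, adjusted p = 2.6e-06) and 3.09 ± 0.26 (SE, adjusted p = 3.66e-06). Col4a1 was at 11.84, 11.19 and 11.05 in dermal papilla, 7.17, 8.37 and 7.09 in hair germ and 7.83, 7.86 and 8.23 in bulge. Col4a2 was at 10.00, 10.22 and 10.09 in dermal papilla, 6.13, 7.69 and 6.08 in hair germ and 7.16, 7.52 and 7.49 in bulge. Both genes were thus above the epithelial range on each day.

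Col4a5 and Col4a6, whose chains occur in the basement membrane under skin epithelium, were lower in dermal papilla by -4.26 ± 0.24 (SE, adjusted p = 1.73e-07) and -3.14 ± 0.23 (SE, adjusted p = 9.99e-07). Col4a5 was at 4.92, 4.50 and 4.79 in dermal papilla, 9.20, 8.52 and 10.09 in hair germ and 8.87, 8.52 and 8.77 in bulge. Col4a6 was at 4.63, 4.32 and 4.18 in dermal papilla, 7.88, 7.83 and 8.31 in hair germ and 6.90, 7.17 and 7.01 in bulge. On all papilla arrays both lay under the array median, and these are the genes whose upstream windows face each other above. The remaining pair, Col4a3 and Col4a4, was under the median on all arrays.

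Type IV chains are also made by vessels. Of 9 endothelial markers, 3 were above the median on a papilla array and none on an epithelial array, and their summed signal was 201 to 412 in dermal papilla, 59.5 to 98.1 in bulge and 65.2 to 147 in hair germ. Eng was at 6.86, 7.69 and 7.54 in dermal papilla on days 43, 56 and 69 and Vwf at 5.41, 6.31 and 5.72, both above their epithelial levels on each day, and Cldn5 was above the median on day 56 only. The other 6 markers, among them Pecam1 (4.23, 4.28 and 4.72 in dermal papilla) and Cdh5 (4.61, 4.99 and 5.22), were under the median on all 9 arrays. Of 8 pericyte and smooth muscle markers, 4 were above the median on a papilla array, and 2 on an array of each epithelium, with a summed signal of 1099 to 1522 in papilla, 478 to 633 in bulge and 366 to 697 in hair germ. The part of endothelial cells and pericytes in the Col4a1 and Col4a2 difference was not tested.

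The multiplexins, which sit where basement membrane meets stroma, also split. Col15a1 was at 7.24, 8.38 and 9.04 in dermal papilla, 4.78, 4.17 and 4.60 in hair germ and 5.23, 5.13 and 4.87 in bulge. The difference was 3.42 ± 0.35 (SE, limma, adjusted p = 1.5e-05), a description, since the gene passed the filter only through the papilla arrays. Col18a1, the precursor of endostatin, was at 7.18, 7.53 and 6.87 in dermal papilla, 9.41, 9.10 and 7.91 in hair germ and 9.72, 10.05 and 10.21 in bulge, a difference of -2.21 ± 0.27 (SE, adjusted p = 6.88e-05). Its bulge arrays were the highest, and the day 69 hair germ array lay nearest to papilla.

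The transmembrane collagens gave the widest contrast. Col17a1, the hemidesmosome component that ties basal keratinocytes to the basement membrane, was at 12.49, 11.90 and 12.62 in hair germ, 12.22, 12.40 and 12.34 in bulge and 6.27, 5.06 and 4.15 in dermal papilla. It differed in papilla by -7.16 ± 0.34 (SE), 143-fold lower (adjusted p = 4.55e-08). Col13a1, a chain found at cell adhesion sites, was at 10.80, 10.15 and 10.47 in dermal papilla, 4.44, 4.86 and 4.90 in hair germ and 4.76, 4.20 and 4.44 in bulge. It was higher in papilla by 5.88 ± 0.23 (SE), or 58.7-fold (limma, adjusted p = 2.08e-08), and under the median on every epithelial array. Since Col13a1 passed the filter only through the papilla arrays, this p value is a description. Col25a1 was not tested and stayed between 4.25 and 6.18.

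Of 3 tested FACIT genes, Col16a1 was higher in dermal papilla, at 10.50, 10.54 and 10.81, against 8.44, 8.96 and 9.32 in hair germ and 7.39, 7.19 and 7.53 in bulge. The 3 populations did not overlap, and the difference was 2.48 ± 0.18 (SE, adjusted p = 1.29e-06). Col12a1 (-0.72 ± 0.27, SE, adjusted p = 0.0519) and Col20a1 (-0.69 ± 0.33, adjusted p = 0.126) did not pass, nor did the short-chain gene Col8a1 (-0.79 ± 0.32, adjusted p = 0.0704). Col7a1, which forms the anchoring fibrils under the epithelium, was at 8.75, 9.63 and 8.74 in dermal papilla and was -0.16 ± 0.29 (SE) from the epithelial mean (95% interval -0.79 to 0.47, adjusted p = 0.692). Against hair germ alone, where 15.5% of all tested genes were higher and 23.8% lower, papilla was lower for Col12a1 (-1.17 ± 0.31, SE, limma, adjusted p = 0.011) and Col7a1 (-0.91 ± 0.33, adjusted p = 0.0484).

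**Figure D3:**
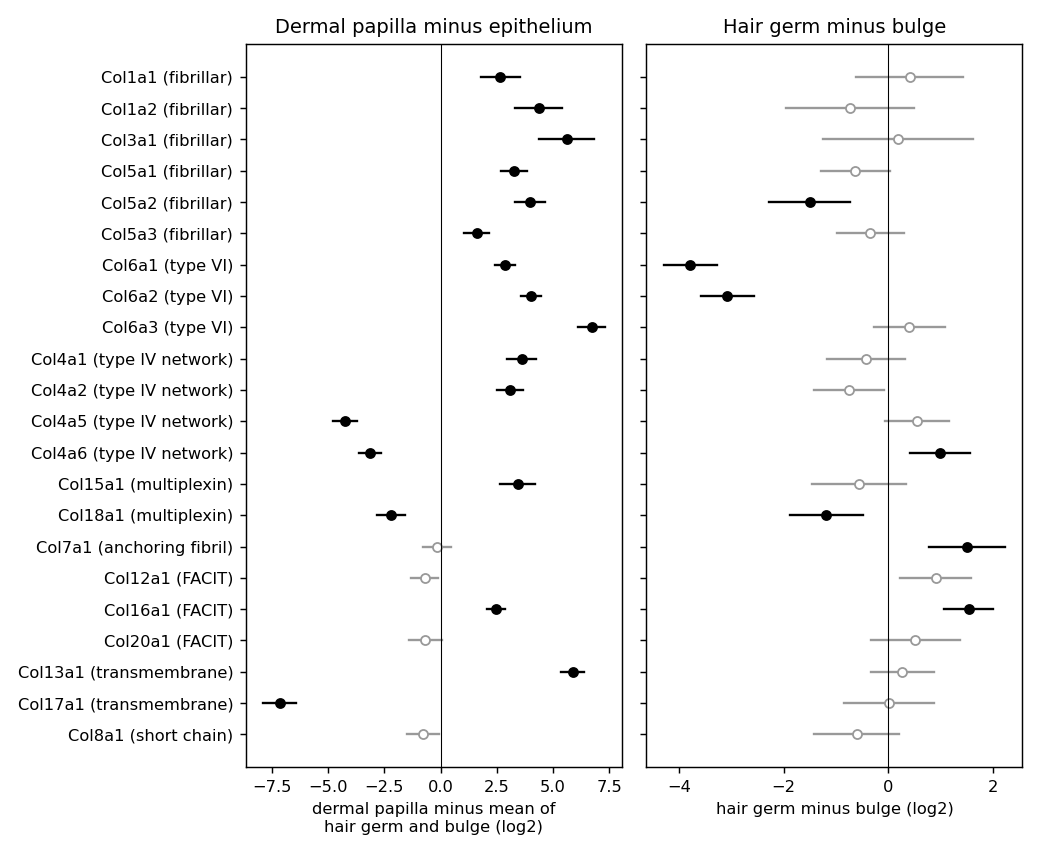
Difference of each tested collagen gene between dermal papilla and the mean of hair germ and bulge (left) and between hair germ and bulge (right), on the log2(signal + 16) scale with 95% intervals from limma; filled black points passed at an adjusted p below 0.05. On the left the points run from -7.16 for Col17a1 to 6.71 for Col6a3, and on the right Col6a1 (-3.78) and Col6a2 (-3.08) stand apart.

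The 18 calls kept their direction and passed in every alternative in which the gene was tested, including those that left out an array. Every probe set of the 11 called genes with more than 1 gave the same sign. The stricter filter of 6 arrays left 9 genes called higher, since it drops genes seen in papilla alone.

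The second comparison asked how collagen genes differ between hair germ, the epithelial cells abutting the papilla in telogen, and bulge, where stem cells reside. Type VI chains Col6a1 and Col6a2 were far lower in hair germ, and the FACIT gene Col16a1 and the anchoring fibril gene Col7a1 were higher. Of 22 tested collagens, 3 were higher and 4 lower (limma, adjusted p below 0.05), where 19.8% of all tested genes were called, 12.2% higher and 7.56% lower. Over all genes that split depends on scaling: with quantile normalization 693 genes were higher and 794 lower, in place of 952 and 589, and the median difference over all genes went from 0.10 to -0.05. The 7 collagens called had the same sign under each scaling. In 10 of 22 tested collagens the hair germ arrays did not overlap those of bulge, a share near the 38.9% of all tested genes.

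Col6a1 was lower in hair germ by -3.78 ± 0.23 (SE), or 13.7-fold (adjusted p = 1.08e-05), and Col6a2 by -3.08 ± 0.23 (SE), or 8.43-fold (adjusted p = 2.25e-05). The lowest bulge level of Col6a1, 10.44, lay far above its highest hair germ level, 7.48. Col6a3 was 0.40 ± 0.30 (SE) from bulge (95% interval -0.27 to 1.08, adjusted p = 0.393). Col6a1 and Col6a2 are neighbours on the same chromosome, with no protein-coding gene between them in the RefSeq table, and Col6a3 lies elsewhere.

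Col16a1 was higher in hair germ by 1.54 ± 0.21 (SE, adjusted p = 0.000662), and papilla was higher than hair germ alone by 1.71 ± 0.21 (SE, adjusted p = 7.91e-05). Col7a1 was at 10.54, 9.98 and 9.34 in hair germ and 8.37, 8.21 and 8.77 in bulge, a difference of 1.50 ± 0.33 (SE, adjusted p = 0.00965). Col4a6 was higher by 0.98 ± 0.26 (adjusted p = 0.0237), but at 0.77 with median centring (adjusted p = 0.0629) and at 1.07 with pseudocount 1 (adjusted p = 0.125) the call ended. Col5a2 was lower by -1.50 ± 0.35 (limma, adjusted p = 0.0128), against -0.74 without the arrays of high GAPDH ratio and without the day term. Col18a1 was lower by -1.18 ± 0.32 (adjusted p = 0.0247), but at -0.83 and not called with the mean of its probe sets (adjusted p = 0.0928).

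Col17a1, the anchoring chain shared by both epithelia, was 0.02 ± 0.39 (SE) apart (95% interval -0.84 to 0.87, adjusted p = 0.984). Leaving out a bulge or hair germ array changed some collagen calls and also lowered the share called over all tested genes. Leaving out a dermal papilla array left the collagen calls as they were. Without the bulge array of day 43, only Col16a1 was higher (6.57% of all tested genes higher), with Col7a1 (adjusted p = 0.0626) and Col4a6 (adjusted p = 0.131) lost. Without that of day 56, again only Col16a1 was higher (7.52%), and Col18a1 was no longer lower (adjusted p = 0.0561). Without that of day 69, only Col6a1 and Col6a2 were lower (4.18% of all tested genes lower), and Col4a6 was no longer higher (adjusted p = 0.102).

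Among the hair germ arrays, leaving out day 43 gave 5 genes higher (9.81% of all tested genes), with Col1a1 and Col20a1 added, while Col5a2 was no longer lower (-1.12, adjusted p = 0.0598). Leaving out day 56 gave 5 genes lower (6.13%), with Col1a2 and Col4a2 added and Col18a1 lost (adjusted p = 0.0613). Leaving out day 69 ended the calls for Col18a1 (adjusted p = 0.0916) and Col4a6 (adjusted p = 0.0872). Leaving out the 3 arrays with a GAPDH ratio above 6 keeps 1 hair germ array, assumed to vary like the others, and that fit also had no day term. Its differences were -0.74 for Col5a2, -0.89 for Col18a1 and 0.81 for Col4a6, and no called collagen changed sign.

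The third comparison addressed change over telogen. No collagen passed for day 69 or day 56 against day 43 (limma, 0 of 22, where 0% of all tested genes were called). At an unadjusted p below 0.05 there were 4 and 1 of 22 collagens, and 565 and 398 of all 7796 tested genes. Within a population there was 1 array a day and so no test. There a gene was counted when 2 arrays differed at least 2-fold and the higher lay above its median.

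In dermal papilla, Col14a1, a FACIT chain of dermal stroma, stood at 5.77, 7.28 and 10.33 on days 43, 56 and 69. That is 4.56 higher on day 69 than on day 43, while hair germ stayed between 5.72 and 5.89 and bulge between 4.79 and 5.24. A further probe set of the gene read 5.22, 6.78 and 9.06. The fibrillar chain gene Col11a1, best known from cartilage, was at 5.62, 4.88 and 7.54, and a further probe set at 5.38, 4.75 and 7.30. Col15a1 was at 7.24, 8.38 and 9.04. These were the collagens counted 2-fold higher on day 69 in papilla, 3 of 36 (8.33%), where 4.34% of all named genes were. On day 56, Col14a1 (1.52) and Col15a1 (1.14) were counted higher, 5.56% of 36 against 3.27%.

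The level of most other collagens in papilla was lower on the later days: 18 of 22 tested collagens were lower on day 69 than on day 43, with a median difference of -0.46 against 0.07 over all tested genes. Counted 2-fold lower were Col17a1 (-2.12), Col8a1 (-1.77) and Col5a3 (-1.06), 8.33% of 36 against 1.72% of all named genes. On day 56 they were Col1a1 (-1.22), Col17a1 (-1.21) and Col20a1 (-1.02), 8.33% against 1.82%. Further probe sets read -0.0007 for Col8a1 and 0.006 for Col5a3 on day 69, both under the median on all arrays. For day 56 they read -0.93 for Col1a1, and -0.04 and -0.53 for Col20a1. Epithelial signal in these arrays was also highest on day 43: the 8 keratinocyte markers summed to 1121, 248 and 242 in dermal papilla on days 43, 56 and 69, with 5, 3 and 2 of them above the median. The summed signal of 9 dermal fibroblast markers was 6880, 7796 and 6975, and its members differed in course: Dcn, a fibril-binding proteoglycan, was at 6.70, 9.04 and 9.16, Dpt at 11.94, 12.20 and 11.86, Pdgfra at 10.51, 9.47 and 10.42 and Thy1 at 8.33, 8.51 and 7.29. RNA quality moved with day as well, with GAPDH ratios of 6.62, 4.13 and 3.77 and actin 3' to 5' ratios of 13.5, 4.32 and 3.12. In the same arrays the 10 papilla markers summed to 22061, 18944 and 26830. Among them only Crabp1, at 13.25, 12.98 and 12.91, was lower on day 69 than on day 43. Sox18 was at 7.22, 7.57 and 9.96 and Vcan at 10.82, 10.18 and 11.93. The leukocyte markers summed to 99.7, 275 and 590, with Laptm5 at 5.14, 7.99 and 9.07 and the others under the median. The part of any of these cell types and of RNA quality in these differences was not tested.

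**Figure D4:**
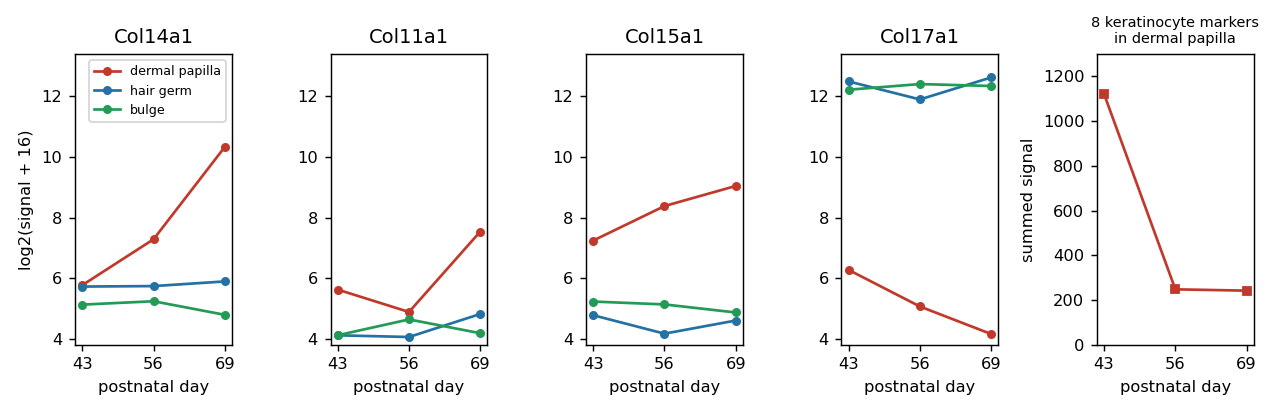
Levels, as log2(signal + 16), of Col14a1, Col11a1, Col15a1 and Col17a1 by postnatal day in the 3 populations (1 array per point), and the summed linear signal of 8 keratinocyte markers in dermal papilla. Col14a1 goes from 5.77 to 10.33 in dermal papilla, and Col17a1 goes from 6.27 to 4.15 there as the keratinocyte signal goes from 1121 to 242.

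In hair germ, 7 of 36 collagens (19.4%) were at least 2-fold higher on day 56 than on day 43, where 3.69% of all named genes were, and none was 2-fold lower (2.2% of all named genes). They were Col1a2 (2.19), Col3a1 (1.74), Col1a1 (1.71), Col4a2 (1.55), Col5a2 (1.42), Col20a1 (1.21) and Col4a1 (1.19). Further probe sets read 1.51 for Col1a2, 0.60 for Col3a1, -0.06 for Col1a1 and 1.56 for Col5a2. Those of Col20a1 read 0.95 and 0.69 and that of Col4a1 0.79, and Col4a2 had no other. On day 69 against day 43, that of Col1a1 read 0.21 and those of Col20a1 0.86 and -0.66. Against day 43, on day 69 Col1a2 (0.09), Col4a2 (-0.05) and Col4a1 (-0.08) were near their day 43 level, whereas Col1a1 (1.28), Col20a1 (1.10), Col3a1 (0.93) and Col5a2 (0.54) were still above it. RNA quality also stood apart on day 56, with GAPDH ratios of 8.34, 2.97 and 7.90. The 10 papilla markers summed to 230, 587 and 320, with 2 of them above the median each day, and did not share 1 course. The brightest, the Wnt inhibitor gene Wif1, was at 6.47, 8.64 and 7.02 and Crabp1 at 4.12, 6.16 and 5.33, while Sox2 was at 6.13, 5.22 and 4.79, Corin at 4.63, 4.37 and 4.86 and Alpl at 5.26, 5.24 and 5.61. The 9 dermal fibroblast markers summed to 1045, 479 and 419, and also differed in course. Thy1, by far the brightest on day 43, was at 9.86, 7.58 and 7.36, and Dpp4 at 5.70, 4.63 and 5.86. The other markers of that list were higher on day 56 than on day 43. Dcn was at 6.36, 7.64 and 6.15 and Dpt at 4.81, 5.67 and 6.20. Lum was at 4.71, 5.62 and 5.82 and Twist2 at 4.07, 4.96 and 5.36. Of these higher markers all but Dcn lay under the array median on day 56. The part of RNA quality, of papilla RNA and of fibroblast RNA in the day 56 levels was not tested. On day 69, Col18a1 (-1.50), Col7a1 (-1.20) and Col6a1 (-1.16) were 2-fold lower than on day 43, 8.33% of 36 against 3.26% of all named genes, and only Col20a1 (1.10) was counted 2-fold higher, 2.78% against 5.89%, since Col1a1 lay under the median of the day 69 array.

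In bulge, Col3a1 (-2.48) and Col1a2 (-1.13) were 2-fold lower on day 56, 5.56% of 36 against 0.234% of all named genes, and no collagen was 2-fold higher on day 56 or 69 (0.161% and 0.992% of all named genes). Col3a1 was back at 8.20 and Col1a2 at 8.63 on day 69. For day 56 against day 43, further probe sets read -0.63 for Col3a1 and -1.04 for Col1a2. The 9 dermal fibroblast markers in bulge summed to 281, 189 and 763. Dcn was at 7.26, 5.86 and 9.10, Dpt at 5.08, 4.56 and 5.97 and Lum at 5.22, 4.69 and 5.94. Twist2 and Dpp4 were also lower on day 56 than on day 43. Thy1, at 6.26, 6.47 and 6.44, Pdgfra, Mfap5 and Pi16 were higher. The part of fibroblast RNA in these levels was not tested. Only Col9a3 (-1.29) was 2-fold lower on day 69, 2.78% of 36 against 0.767%, and its further probe sets read 0.21 and -0.87.

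**Figure D5:**
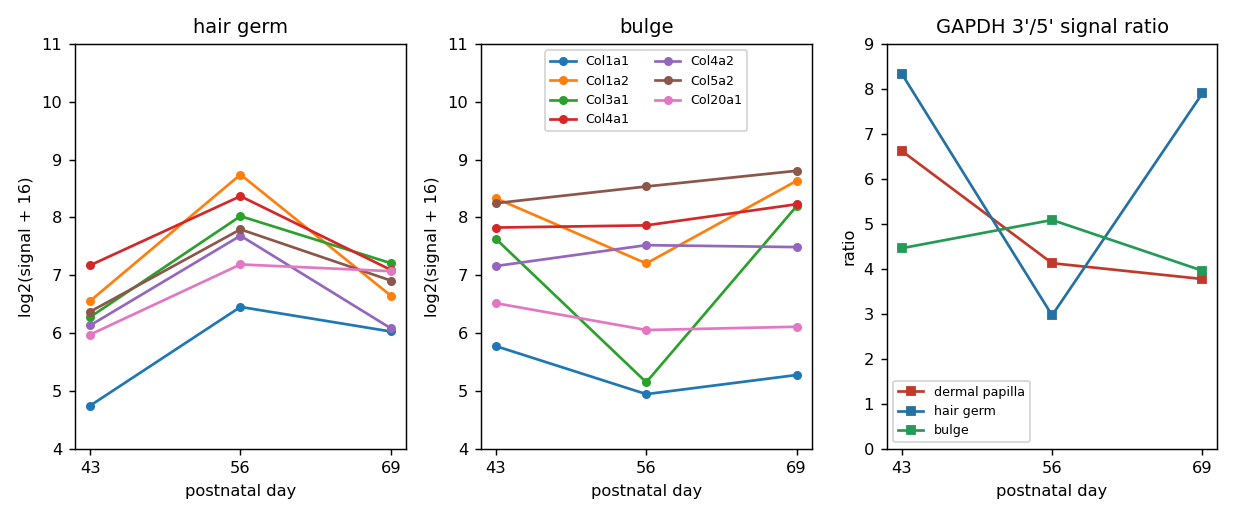
Levels, as log2(signal + 16), by postnatal day of the 7 collagen genes at least 2-fold higher on day 56 than on day 43 in hair germ, shown for hair germ and for bulge, beside the GAPDH 3'/5' signal ratio of each array (1 array per point). In hair germ Col1a2 peaks at 8.74 on day 56, the day with the lowest ratio, 2.97.

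Of 34 listed biosynthesis and processing genes, 25 were on the array and 19 were tested. In dermal papilla 15 were higher and 0 lower, where 16.6% of all tested genes were higher and 23.7% lower, and the median difference was 1.53 against -0.10 over all tested genes. Plod2, P3h1, P3h3, Loxl1 and Loxl3 passed the filter through the papilla arrays alone, so the filter favours a difference for these 5, and 10 of the other 14 were higher. These counts are descriptions. Pcolce, the enhancer that speeds removal of the procollagen C-terminal end, was at 12.54, 11.95 and 12.28 in dermal papilla, 4.66, 6.02 and 6.31 in hair germ and 5.33, 5.18 and 5.78 in bulge, a difference of 6.71 ± 0.30 (SE, adjusted p = 3.64e-08).

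After Pcolce, the largest differences were those of 3 genes that passed through papilla alone. Loxl1, a lysyl oxidase, differed by 5.41 ± 0.22, Plod2, which hydroxylates the lysines used for cross-links, by 3.88 ± 0.36, and the prolyl 3-hydroxylase family member P3h3 by 3.37 ± 0.22. Serpinh1, the collagen chaperone HSP47, was higher by 2.89 ± 0.18 (SE). In hair germ against bulge, the procollagen protease gene Bmp1 (1.23 ± 0.24, adjusted p = 0.0051) and the prolyl 4-hydroxylase gene P4ha1 (0.92 ± 0.22, adjusted p = 0.0164) were higher, and the collagen-binding protein gene Sparc was lower (-1.07 ± 0.34, adjusted p = 0.0461).

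Of 9 receptor and uptake genes, 5 were on the array and 3 were tested. The receptor tyrosine kinases that bind collagen went opposite ways: Ddr1 was lower in dermal papilla by -2.94 ± 0.22 (SE) and Ddr2 was higher by 1.97 ± 0.33 (SE). Ddr1 was at 10.06, 9.14 and 9.49 in dermal papilla, 12.55, 12.09 and 12.89 in hair germ and 12.51, 12.60 and 12.39 in bulge, so no papilla array reached the epithelial range. Ddr2 was at 6.71, 7.19 and 7.33 in dermal papilla, 5.04, 5.87 and 6.53 in hair germ and 4.86, 4.14 and 4.18 in bulge. It was higher in hair germ than in bulge by 1.42 ± 0.38 (SE, adjusted p = 0.0238). Mrc2, the Endo180 receptor that takes up cleaved collagen, was higher in papilla by 3.43 ± 0.28 (SE).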

How the data were processed

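The values were MAS5 probe set signals, which are linear intensity values that the authors made with GCOS, per the submitters' processing notes, and deposited for 22690 probe sets on 9 arrays. Versions, scaling target and detection calls are not given in the sources used here. RNA was amplified in 2 rounds before labelling, per the labels' protocols. The 64 control probe sets were set aside, values were put on the log2(signal + 16) scale without rescaling, and genes were named from the platform annotation with current RefSeq symbols, where 20380 probe sets had a single gene, 691 several and 1555 none. After the filter of 3 arrays, 7796 genes were tested with limma 3.58.1 in R 4.3.3, with population and day as additive terms (4 residual degrees of freedom), eBayes with a mean-variance trend, two-sided, and Benjamini-Hochberg adjustment over all tested genes. Steps were tested on simulated data.

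The collagen genes, their classes and the lists of processing, receptor and marker genes were chosen with earlier results of these data known. The naming rule gave up to 4 called genes per class or list and contrast, genes at least 2-fold apart between days, and marker genes. Alternatives covered scaling, pseudocount, filter, probe set choice, variance trend, the day term and left-out arrays, and dermal papilla against each epithelial population was added after the values were seen. Arrays give no count depth, so their number limits the precision. Promoter sequences are RefSeq's on GRCm38.p6.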

Additional observations from a re-analysis of the deposited data

Results flagged for a closer look

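Between days 43 and 56, 4 collagens differed at least 2-fold in opposite directions in 2 populations, with 1 array behind each level, so the difference between populations was not tested. Col1a1 was higher by 1.71 in hair germ and at -1.22 in dermal papilla, but a further probe set read -0.06 and -0.93. Col1a2 was higher by 2.19 in hair germ and at -1.13 in bulge, and a further probe set read 1.51 and -1.04. Col3a1 was higher by 1.74 in hair germ and at -2.48 in bulge, but a further probe set read 0.60 and -0.63. Col20a1 was higher by 1.21 in hair germ and at -1.02 in dermal papilla. Its further probe sets read 0.95 and -0.04, and 0.69 and -0.53. Only for Col1a2 did the further probe set also reach 2-fold in both directions. Groups of 3 arrays were not examined for single arrays that stand apart.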

How the results depend on the processing

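For dermal papilla against epithelium, the counts of 14 and 4 collagens stayed within 1.5 times under every alternative except the filter of 6 arrays (9 higher), and against bulge alone or hair germ alone as well. For hair germ against bulge, leaving out 1 array gave 1 to 5 genes higher and 2 to 5 lower. Leaving out arrays of high GAPDH ratio kept 1 hair germ array and dropped the day term, so no count is given for it. Calls for Col18a1, Col4a6, Col5a2 and Col7a1 ended under at least 1 alternative, and those for Col6a1, Col6a2 and Col16a1 under none. No sign reversed. Without the day term (no replicate block) the counts were again 14 and 4, and 3 and 4. Same-day deviations of different populations correlated at -0.097 to 0.184 over genes and those of different days at -0.261 to 0.243, so a shared day does not show pairing. Of the 2-fold counts between days, pseudocount 64 gave 1 lower in bulge on day 56 and 0 on day 69, 0 higher and 1 lower in dermal papilla on day 56, 0 lower there on day 69, and 4 higher in hair germ on day 56 and 0 on day 69. Pseudocount 1 gave 1 higher in bulge and 2 in hair germ on day 69. The mean of probe sets gave 0 lower in bulge on day 69, and 4 higher in hair germ on day 56 and 0 on day 69. Quantile normalization gave 0 higher in hair germ on day 69. These 2-fold counts thus depend on the pseudocount, and some on the probe set choice and scaling. Other causes were not tested.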
